A study of Mus musculus with 18 samples.

Results

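The 420 regions described here were autosomal H3K4me3 intervals with little H3K36me3 for their H3K4me3 in Ewsr1-CKO spermatocytes that also carried a DMC1 site. They were selected on the H3K36me3 and H3K4me3 values of Ewsr1-CKO and on the presence of a listed DMC1 site, not on DMC1 values. For each of the 5468 distinct autosomal intervals of the authors' list of H3K4me3 sites shared by B6 and Ewsr1-CKO, the ratio of (H3K36me3 + 0.1) to (H3K4me3 + 0.1) in Ewsr1-CKO was taken in RPM, the authors' reads scaled to library size. The lowest 10% of the intervals, 547 with a ratio of at most 0.777, were called H3K36me3-poor. Of them, 420 shared at least 1 bp with a site of the authors' DMC1 list. By its name, that list holds sites common to B6, Ewsr1-CKO and Prdm9 het. The 420 regions were compared with 3979 intervals from the middle 80% of the ratio that met the same overlap. For contrast, 495 intervals from the highest 10%, with a ratio of at least 2.35, are called H3K36me3-rich. The complete list held 5567 distinct intervals, X chromosome included.

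The study used ChIP-seq on spermatocytes of mice 14 days post-partum. B6 mice (C57BL/6J) served as the control. Ewsr1-CKO mice carried a conditional knockout of Ewsr1 driven by Stra8-iCre, a Cre expressed in male germ cells before they enter meiosis, so other cell types keep the gene. Prdm9 het mice were Prdm9+/-, with a single intact copy. Each of the 5 groups used here comprised 2 samples, and the authors deposited 1 value per group and site without stating how the replicates were combined. No spread between animals could therefore be computed, no test across samples was possible and no p-value is given. Intervals of medians and of shares below are 95% intervals over sites, which are not replicates of a genotype. The labels do not say whether the Ewsr1-CKO and B6 animals were littermates.

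In mouse meiosis the zinc finger protein PRDM9 binds its DNA motif and its PR/SET domain methylates histone H3 at lysine 4 and lysine 36 of the flanking nucleosomes. SPO11 then cuts the DNA at a subset of these places, the ends are resected, and the recombinase DMC1 coats the single strands, which is what DMC1 ChIP-seq recovers. H3K4me3 is also placed at gene promoters by other enzymes, and H3K36me3 is also placed by SETD2 along the bodies of transcribed genes. EWSR1 is an RNA-binding protein of the FET family, named in the series title in connection with PRDM9-dependent methylation.

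A genome sequence was not used here, so the sequence behind most of the 420 regions is not shown. The members whose H3K4me3 interval covers an annotated gene start are the exception, and 4 of their upstream windows are printed. Whether the DMC1 site itself covers the start was not tested. RefSeq (GRCm38.p6, the same assembly as mm10) placed a gene start within 14 of the 415 members it could be matched to, 3.37% (Wilson interval 2.02 to 5.58%), involving 15 genes. In the middle class it was 35 of 3848 intervals, 0.910% (0.655 to 1.26%), and in the rich class 2 of 472, 0.424%. Gene starts were thus more frequent in the poor class, yet 401 of its 415 annotated members had none. Shown are the 3 gene starts whose members had the highest B6 DMC1 and the protein-coding start whose member had the highest. Each is given as the 250 bases upstream of the start, 5′ to 3′ on the gene's strand, with CpG dinucleotides in capitals.
Gm31650: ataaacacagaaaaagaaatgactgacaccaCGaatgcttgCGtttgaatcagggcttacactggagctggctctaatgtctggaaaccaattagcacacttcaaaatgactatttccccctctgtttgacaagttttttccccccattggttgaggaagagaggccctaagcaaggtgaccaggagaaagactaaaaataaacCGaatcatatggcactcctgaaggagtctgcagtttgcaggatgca
AW112010: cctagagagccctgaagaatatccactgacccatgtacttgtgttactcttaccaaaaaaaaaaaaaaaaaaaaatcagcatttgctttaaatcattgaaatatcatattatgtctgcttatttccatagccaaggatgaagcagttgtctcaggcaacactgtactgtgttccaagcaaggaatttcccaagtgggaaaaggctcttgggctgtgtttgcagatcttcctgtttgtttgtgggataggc
BB123696: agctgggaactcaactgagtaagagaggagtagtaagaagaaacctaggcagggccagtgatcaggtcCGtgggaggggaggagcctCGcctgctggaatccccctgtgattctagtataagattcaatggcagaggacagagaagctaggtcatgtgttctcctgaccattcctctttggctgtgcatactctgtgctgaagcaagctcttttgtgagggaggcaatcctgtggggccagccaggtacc
Txndc2: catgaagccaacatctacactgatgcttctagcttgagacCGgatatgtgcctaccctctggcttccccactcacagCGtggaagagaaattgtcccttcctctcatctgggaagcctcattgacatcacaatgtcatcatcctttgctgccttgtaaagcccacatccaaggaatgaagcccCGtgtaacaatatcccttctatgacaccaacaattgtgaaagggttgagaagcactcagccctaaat

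The Gm31650 window lay at chr12:29439264-29439513 on the plus strand, inside the member at 29438384 to 29440980. The gene is annotated as a long non-coding RNA. The member had DMC1 values of 267 RPM for B6, 197 RPM for Ewsr1-CKO and 41.7 RPM for Prdm9 het. AW112010, also a long non-coding RNA, had its window at chr19:11050567-11050816 on the minus strand. Its member had DMC1 values of 128, 125 and 29.6 RPM in the same order. BB123696, a long non-coding RNA as well, had its window at chr13:52757206-52757455 on the minus strand. The member there had 107, 82.5 and 36.9 RPM. Txndc2, which encodes a thioredoxin of spermatids, had its window at chr17:65642205-65642454 on the minus strand, and the member there had 29.3, 38.1 and 8.39 RPM. The 4 windows held 3, 0, 2 and 3 CpG dinucleotides, in the order printed. Counting each of the 15 genes once, the median was 2 CpG and 47.6% GC, against 6 CpG (quartiles 2 and 16) and 52.4% GC over the 32851 windows of the RefSeq table. Over all 19 start windows at members, which include overlapping alternative starts of Gm35477, it was 3 CpG and 50% GC. Other protein-coding genes with a start inside a member were Psen2, a presenilin of the gamma-secretase complex, Ebi3, a subunit of interleukin 27, Sh3tc1 and Gm6557.

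The values that chose the members are given as a description. H3K4me3 in Ewsr1-CKO ranged from 0.168 to 7.25 RPM at members with a median of 1.30 RPM, and the median was 1.04 RPM in the middle class. H3K36me3 ranged from 0.0128 to 5.29 RPM with a median of 0.791 RPM, against 1.41 RPM in the middle class and 3.01 RPM in the rich class. Low ratios thus came with both less H3K36me3 and more H3K4me3. No member had an H3K36me3 value of 0. The median ratio was 0.678 at members, 1.29 in the middle class and 2.90 in the rich class. Just inside the limit stood intervals on chromosome 14 at 15950224 to 15952399 and 102834130 to 102835820 and on chromosome 17 at 44041387 to 44043028, with ratios of 0.776, 0.777 and 0.777. Just outside stood intervals on chromosome 8 at 126136328 to 126137870, chromosome 1 at 90089924 to 90091640 and chromosome 15 at 75578025 to 75580718, at 0.777, 0.777 and 0.778. The class has no natural edge, and its limit cuts a continuous distribution.

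**Figure D1:**
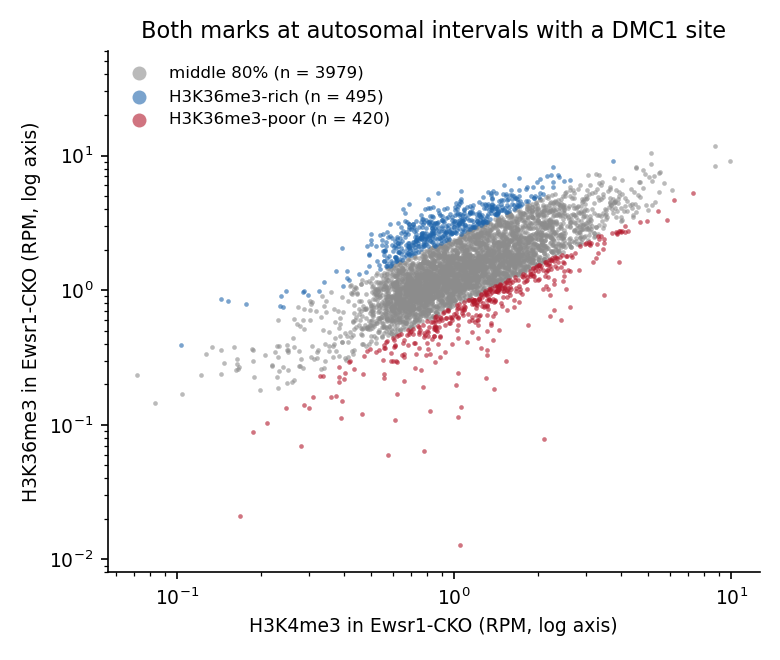
H3K36me3 against H3K4me3 in Ewsr1-CKO (RPM, both axes logarithmic), 1 point per autosomal interval with a DMC1 site. The 420 poor intervals form the lower border of a single cloud, with a few points far below it, and the 495 rich intervals form its upper border.

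The 5 lowest ratios belonged to intervals with almost no H3K36me3. Their H3K4me3 ran from 0.775 to 2.10 RPM, against quartiles of 0.752 and 1.53 RPM in the middle class. The lowest of all, 0.0811, was on chromosome 17 at 69577366 to 69579611, with 2.10 RPM of H3K4me3 and 0.0786 RPM of H3K36me3. Its DMC1 values, again for B6, Ewsr1-CKO and Prdm9 het, were 86.3, 74.1 and 27.3 RPM. The nearest annotated gene start, of Akain1, was 139 kb away. On chromosome 13 at 65526997 to 65528853 (ratio 0.0982) the DMC1 values were 9.65, 13.3 and 3.78 RPM in the same order. Chromosome 2 at 15310063 to 15311705 (0.187) had 9.90, 16.2 and 1.98 RPM. Chromosome 19 at 8036694 to 8038783 (0.190) had 25.5, 30.7 and 12.5 RPM. Chromosome 6 at 3135242 to 3137387 (0.191) had 19.5, 26.5 and 0.277 RPM, with little DMC1 in Prdm9 het. Of these sites the first alone exceeded the autosomal median of B6 DMC1, 47.3 RPM.

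DMC1 was lower at H3K36me3-poor sites in all 3 genotypes. In B6 the members ranged from 6.56 to 522 RPM, with quartiles of 21.99 and 82.8 RPM and a median of 41.9 RPM (interval 36.4 to 47.3 RPM). The middle class had a median of 70.1 RPM (66.9 to 72.7 RPM), 1.67-fold more. In Ewsr1-CKO the medians were 48.4 RPM (42.2 to 55.2 RPM) at members and 76.8 RPM (74.1 to 79.8 RPM) in the middle class, a ratio of 1.59. In Prdm9 het they were 9.73 RPM (8.83 to 11.2 RPM) and 14.6 RPM (14.1 to 15.2 RPM), the members standing at 0.666 of the middle class. The intervals of the medians did not overlap in any of the 3 columns, while the distributions themselves overlapped widely. The 3 columns are listed over the same sites, and the Prdm9 het column had a lower level overall (autosomal median 9.02 RPM), so levels were compared within a column.

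**Figure D2:**
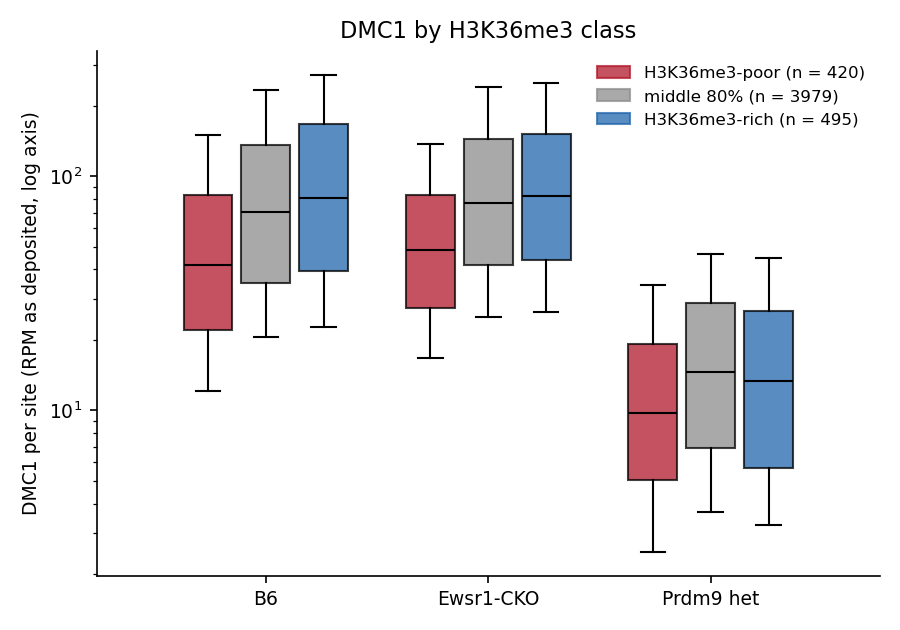
DMC1 per site (RPM as deposited, logarithmic axis) for the 3 classes in each of the 3 genotypes. Boxes show quartiles and the median and whiskers the 10th and 90th percentiles. The poor class has the lowest median in each genotype, 41.9, 48.4 and 9.73 RPM.

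On the log2(RPM + 1) scale, with each column set to the same autosomal median, the difference between the poor and middle medians was −0.73 in B6, −0.66 in Ewsr1-CKO and −0.58 in Prdm9 het. The poor median was below the middle median on 16 of 19 autosomes in B6, on 18 of 19 in Ewsr1-CKO and on 17 of 19 in Prdm9 het. Of the 420 members, 68.6% lay below the middle median in B6, 69.8% in Ewsr1-CKO and 66.2% in Prdm9 het. With a pseudocount of 1 RPM in the choosing ratio the differences were −0.53, −0.45 and −0.30, in the same order. Among intervals above the lower quartile of mean DMC1 they were −0.34, −0.42 and −0.33. Without the members that lay within 500 kb of another poor interval they were −0.53, −0.41 and −0.48.

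The lower DMC1 stood beside higher H3K4me3, so DMC1 was also compared within 3 equally large bins of H3K4me3. In the bin with the least H3K4me3 (up to 0.835 RPM) the median B6 DMC1 was 26.7 RPM at 96 members and 40.9 RPM in the middle class. In the intermediate bin it was 32.2 RPM at 126 members and 71.2 RPM in the middle class. In the bin with the most H3K4me3 (at least 1.32 RPM) it was 61.9 RPM at 198 members and 114 RPM in the middle class. In B6, poor sites with the most H3K4me3 thus had a lower median than middle sites of intermediate H3K4me3. The same medians were 70.0 and 79.8 RPM in Ewsr1-CKO, but in Prdm9 het the order was the other way, 15.8 and 15.0 RPM. Averaged over the bins, the difference was −0.86 in B6, −0.79 in Ewsr1-CKO and −0.75 in Prdm9 het. In the rich class the corresponding B6 medians were 46.3, 86.3 and 197 RPM, above both other classes in each bin. Within the poor class DMC1 still went with H3K4me3: across the 420 sites Spearman's rho of H3K4me3 with DMC1 was 0.444 in B6, 0.423 in Ewsr1-CKO and 0.515 in Prdm9 het, near the 0.444, 0.372 and 0.453 of the middle class. With H3K36me3 the coefficients in the poor class were 0.481, 0.446 and 0.536. These coefficients describe sites of the same columns and were not adjusted for site width.

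**Figure D3:**
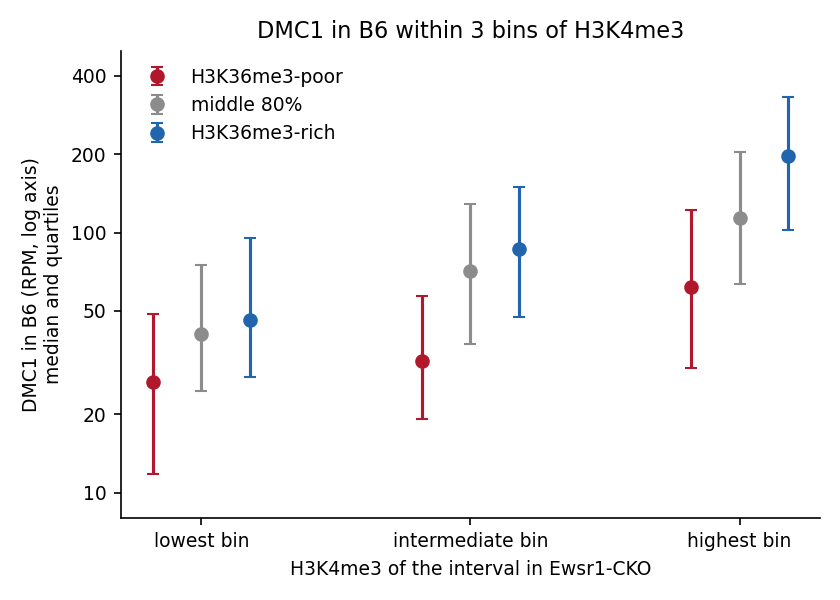
DMC1 in B6 (RPM, logarithmic axis) by bin of Ewsr1-CKO H3K4me3, with points for the medians of the 3 classes and bars for the quartiles. In each bin the poor class is lowest (26.7, 32.2 and 61.9 RPM) and the rich class highest (46.3, 86.3 and 197 RPM).

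The strongest member was on chromosome 13 at 95391181 to 95393635, 17.1 kb from the start of Aggf1, with DMC1 values of 522, 367 and 108 RPM in B6, Ewsr1-CKO and Prdm9 het. Next in B6 came chromosome 14 at 87159498 to 87163141, 20.1 kb from the start of Diaph3, a formin, with 395, 333 and 82.7 RPM in the same order. Chromosome 12 at 113732148 to 113735607 had 391, 329 and 83.4 RPM. Chromosome 13 at 37320733 to 37322979 had 369, 320 and 83.5 RPM. Chromosome 9 at 115098826 to 115101497, inside Osbpl10, an oxysterol-binding protein gene, had 344, 256 and 77.4 RPM. In all 5 the log2 change from B6 to Ewsr1-CKO with columns set to one autosomal median was under 0, between −0.75 and −0.45, and that from B6 to Prdm9 het lay between 0.12 and 0.25. Because these 5 were chosen for high B6 values, the choice itself favours low ratios over B6. Members with the most H3K4me3 were not the strongest for DMC1. The highest H3K4me3, 7.25 RPM, was on chromosome 2 at 120064938 to 120068070 inside Sptbn5, a spectrin gene, with 128 RPM of DMC1 in B6. On chromosome 6 at 145268669 to 145272309, 6.20 RPM of H3K4me3 went with 122 RPM of DMC1 in B6. On chromosome 3 at 87757736 to 87760419, inside Pear1, 5.86 RPM went with 229 RPM.

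Genotype ratios were computed as log2 ratios of DMC1 after each column was set to the same autosomal median, so a value of 0 means a change equal to that of the column's autosomal median. The median of the log2 ratios over all 8744 autosomal DMC1 sites was −0.08 for Ewsr1-CKO over B6, −0.03 for Prdm9 het over B6 and −0.0013 for Ewsr1-CKO over Prdm9 het. Poor and middle sites had nearly the same median change on loss of EWSR1. The median of the log2 change from B6 to Ewsr1-CKO was −0.12 at members (interval −0.17 to −0.07; quartiles −0.38 and 0.19) and −0.13 in the middle class (−0.15 to −0.11), a difference of 0.009. With the lowest 5% as members it was 0.11. DMC1 was at least 1.5-fold lower in Ewsr1-CKO at 43 of 420 members (10.2%), against 9.08% of all 8744 autosomal DMC1 sites and 10.3% of the middle class. It was at least 1.5-fold higher at 36 members (8.57%), against 8.7% of all autosomal sites and 6.31% of the middle class. Both shares of the members were near those of all sites. If 1 step of the columns stands for 1 read, the median member had 326 reads in B6 and 197 in Ewsr1-CKO, and read sampling alone gives its log2 ratio a standard error of 0.13, against a spread of 0.43 between members (interquartile range rescaled to a standard deviation).

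The near-zero difference for Ewsr1-CKO over B6 combined parts of opposite sign. Outside protein-coding gene spans the median was −0.13 at 284 members and −0.04 at 1793 middle sites. Inside such spans it was −0.10 at 136 members and −0.20 at 2186 middle sites. Ranked by mean DMC1 over the 3 columns, the weakest of 3 equally large bins had medians of 0.07 at 212 members and 0.01 in the middle class. The intermediate bin had −0.15 at 133 members and −0.13 in the middle class, and the strongest −0.43 at 75 members and −0.25 in the middle class. The mean used for this ranking includes the B6 and Ewsr1-CKO values that form the ratio. Among members of at least typical strength (138 members, mean DMC1 at or above the median of all intervals), the highest ratio was on chromosome 19 at 32715354 to 32717504, inside Atad1, an AAA ATPase gene. DMC1 there was 45.1 RPM in B6 against 97.0 RPM in Ewsr1-CKO, or 0.85 on the log2 scale (sampling error 0.11). Chromosome 7 at 14579747 to 14581928 followed (0.75, from 88.6 to 178 RPM), then chromosome 6 at 103948532 to 103950539 (0.71, from 76.5 to 149 RPM). The lowest was the H3K4me3-rich site inside Pear1 on chromosome 3, −1.12, from 229 to 124 RPM. Chromosome 10 at 64491246 to 64494180, inside Ctnna3, an alpha-catenin gene, stood at −0.97 (132 to 79.1 RPM). Chromosome 1 at 128788704 to 128790658 stood at −0.96 (178 to 108 RPM).

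In Prdm9 het the poor sites stood higher in relation to B6 than the middle class. The median log2 change from B6 to Prdm9 het was 0.26 at members (interval 0.21 to 0.34; quartiles −0.06 and 0.62) and 0.10 in the middle class (0.09 to 0.12), a difference of 0.15, or 1.11-fold. It was −0.30 in the rich class. The poor median was above the middle median on 16 of 19 autosomes. Calls were made on columns set to one autosomal median, not on RPM as deposited. At 116 of 420 members (27.6%, Wilson interval 23.6 to 32.1%) DMC1 was at least 1.5-fold higher in Prdm9 het, against 10.6% of all autosomal sites and 14.1% of the middle class (13.0 to 15.2%). It was at least 1.5-fold lower at 35 members (8.33%), against 14.7% of all sites, 8.62% of the middle class and 25.7% of the rich class. The share of members on the higher side thus exceeded the background and that of the middle class. The value was not particular to the poor class: the second decile of the ratio, which belongs to the middle class, had a median of 0.25, and the decile medians went down to −0.30 in the last. The comparison uses the same B6 column as the one before, and the depth of the Prdm9 het column is unknown. Unlike the B6 and Ewsr1-CKO values, the Prdm9 het values were not whole multiples of any step that was found. Whether the columns were processed alike is not known. Outside protein-coding gene spans the difference between poor and middle medians was 0.08 (0.25 and 0.17), and within the bins of H3K4me3 it averaged 0.11. In the bin with the least H3K4me3 the medians were close, 0.037 at 96 members and 0.025 in the middle class, against 0.24 and 0.11 in the intermediate bin and 0.38 and 0.20 in the bin with the most.

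**Figure D4:**
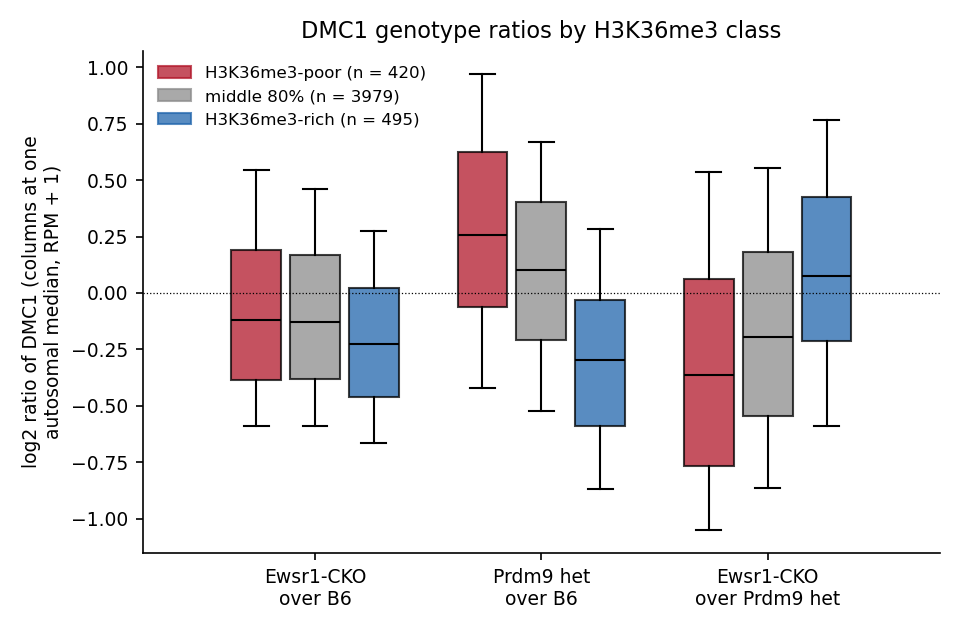
Log2 ratios of DMC1 between genotypes (columns set to one autosomal median, pseudocount 1 RPM) for the 3 classes. Boxes show quartiles and the median and whiskers the 10th and 90th percentiles. Poor and middle classes coincide for Ewsr1-CKO over B6 (medians −0.12 and −0.13), while Prdm9 het over B6 steps down from poor (0.26) to middle (0.10) to rich (−0.30).

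The 3 highest Prdm9 het over B6 ratios among members of at least typical strength were on chromosome 14 at 13934824 to 13936304 at 1.73, chromosome 4 at 150624201 to 150626746, at 1.53, and chromosome 15 at 75450263 to 75452457 inside Ly6l, at 1.47. Across B6, Ewsr1-CKO and Prdm9 het DMC1 at the first was 46.4, 50.8 and 29.9 RPM, at the next 54.7, 70.0 and 30.4 RPM and at the last 50.9, 62.4 and 27.1 RPM. Their Ewsr1-CKO over B6 ratios were −0.11, 0.11 and 0.05. The 3 lowest were strong sites with little signal in Prdm9 het. Chromosome 15 at 12003347 to 12005201, 8.27 kb from the start of Sub1, a transcriptional coactivator gene, had 165, 142 and 0.283 RPM in the same order. Chromosome 8 at 34812390 to 34813572, inside Dusp4, a MAP kinase phosphatase gene, had 306, 325 and 1.05 RPM. Chromosome 9 at 45111131 to 45113798, 5.41 kb from the start of Scn2b, a sodium channel subunit gene, had 186, 156 and 4.92 RPM. Their log2 ratios of Prdm9 het over B6 were −6.06, −5.56 and −2.80. One further member, on chromosome 3 at 33285395 to 33286730, was chosen after its value was seen: it was listed at 0 in Prdm9 het, while B6 had 43.3 RPM and Ewsr1-CKO 38.3 RPM.

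Set against Prdm9 het, Ewsr1-CKO had a median log2 ratio of −0.36 at members (interval −0.44 to −0.28) and −0.20 in the middle class (−0.22 to −0.17), a difference of −0.17. The second decile of the ratio, part of the middle class, had the same median of −0.36, so this value too was not particular to the poor class. The difference was −0.092 within the bins of H3K4me3 and −0.072 with the lowest 5% as members. The poor median was below the middle median on 16 of 19 autosomes. The counts that follow use columns set to one autosomal median. As deposited, Ewsr1-CKO can still be the higher, as at the Pear1 site (124 against 81.7 RPM). DMC1 was at least 1.5-fold lower in Ewsr1-CKO than in Prdm9 het at 146 members (34.8%), against 15.5% of all autosomal sites and 22.8% of the middle class. It was at least 1.5-fold higher at 38 members (9.05%), against 16.4% of all sites and 9.10% of the middle class. The 3 lowest ratios among members of at least typical strength were the Pear1 site on chromosome 3 (−2.02), chromosome 9 at 64472299 to 64474713 inside Megf11 (−1.86, with 66.9, 47.9 and 28.4 RPM in the usual order) and the chromosome 14 site at 13934824 (−1.84). The 3 highest were the sites on chromosome 15 at 12003347 (5.61) and chromosome 8 at 34812390 (5.40) and the chromosome 14 site at 15950224 (2.74). At the last of these DMC1 was 104, 177 and 4.11 RPM in B6, Ewsr1-CKO and Prdm9 het.

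The poor class also differed in features that the ratio did not use. Members touched the span of a protein-coding gene in 136 of 420 cases (32.4%, Wilson interval 28.1 to 37.0%), middle intervals in 54.9% (53.4 to 56.5%) and rich intervals in 98.0% (96.3 to 98.9%). With genes of any type the shares were 45.5%, 63.0% and 98.0%. The share in protein-coding spans went from 32.4% in the first decile of the ratio through 45.1% in the fifth to 98.0% in the last. DMC1 was lower at members on both sides of this division. Outside protein-coding spans the B6 medians were 44.3 RPM at members and 71.4 RPM in the middle class, and inside them 36.8 and 69.3 RPM. At the 415 members matched to gene starts the median distance to the nearest start was 23.3 kb, compared with 32.9 kb in the middle class and 25.1 kb in the rich class.

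**Figure D5:**
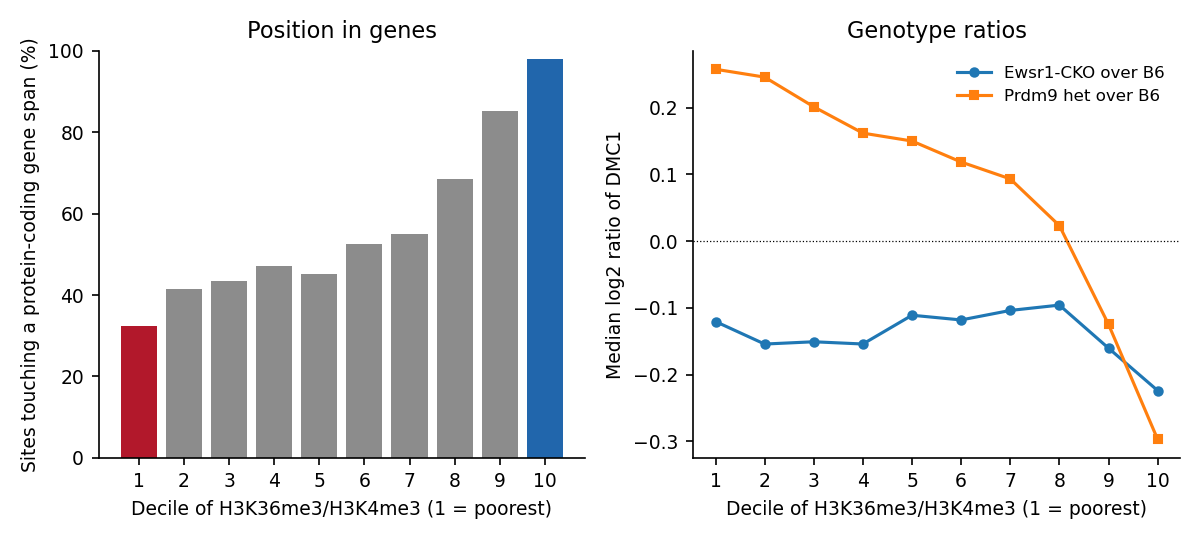
Share of sites touching a protein-coding gene span (percent, left) and median log2 ratios of DMC1 (right) by decile of the H3K36me3 to H3K4me3 ratio, from poorest (1) to richest (10). The share in genes goes from 32.4% to 98.0% and the Prdm9 het over B6 ratio from 0.26 to −0.30, while Ewsr1-CKO over B6 stays between −0.22 and −0.10.

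The H3K4me3 intervals of members were narrower, with a median of 1648 bp (range 519 to 3908 bp) against 1814 bp in the middle class. Their DMC1 sites were also narrower, 2439 bp against 2595 bp. The midpoint of the H3K4me3 interval lay a median of 190 bp from the midpoint of the DMC1 site at members and 133 bp in the middle class. Within 3 equally large bins of interval width the difference in B6 DMC1 averaged −0.54 and was smallest among the narrowest intervals. That bin held 195 of the 420 members, with B6 medians of 30.9 RPM at members and 35.9 RPM in the middle class. Its Ewsr1-CKO medians were 33.4 and 43.2 RPM and its Prdm9 het medians 6.89 and 7.29 RPM. In the intermediate bin the B6 medians were 43.0 and 66.7 RPM, and in the widest 78.2 and 136 RPM. The lowest 10% of the ratio overlapped a DMC1 site less often than the rest, 420 of 547 (76.8%, Wilson interval 73.1 to 80.1%), against 91.0% (90.1 to 91.8%) of the middle 80% and 90.5% of the highest 10%. The 127 poor intervals with no listed DMC1 site had less of both marks than the members. Their medians were 0.718 RPM of H3K4me3, 0.340 RPM of H3K36me3 and a width of 1287 bp. Since the list is named as common to the 3 genotypes, such intervals may still carry DMC1 in some of them, which was not tested.

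Members were unevenly placed. They made up 8.58% of the autosomal intervals with a DMC1 site, but 15.3% on chromosome 15 (33 of 216) and 15.3% on chromosome 13 (40 of 262), 13.3% on chromosome 5 and 12.5% on chromosome 12. The lowest shares were 3.14% on chromosome 18 (5 of 159) and 4.52% on chromosome 16. The listed interval nearest to a member was itself poor in 98 of 420 cases (23.3%, Wilson interval 19.5 to 27.6%), against 8.29% (7.48 to 9.19%) for middle intervals. With gaps of at most 500 kb between them, 139 members formed 58 groups and 281 stood alone. The largest groups held 5 members each. One covered chromosome 13 from 54018016 to 54842745 with 1 middle interval and 1 interval without a DMC1 site among them, and its members had B6 DMC1 values from 7.97 to 83.7 RPM. The other covered chromosome 9 from 113508395 to 115101497, with 5 middle intervals, 1 rich interval and 1 without a DMC1 site among them and values from 21.3 to 344 RPM. On chromosome 12 from 25130690 to 25245225, 4 members stood with no other interval carrying a DMC1 site between them and no protein-coding gene, though 1 listed interval without a DMC1 site lay there, with B6 DMC1 from 24.6 to 178 RPM. Neighbouring members could therefore differ widely in DMC1.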

How the data were processed

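ChIP-seq libraries of DMC1, H3K4me3 and H3K36me3 were made from spermatocytes, with micrococcal nuclease digestion for the histone marks and sonication for DMC1, per the labels' protocols. Trimmomatic 0.32, BWA 0.5.10 and the build mm10 are named in the submitters' processing notes. The peak caller, duplicate handling, the RPM denominator and how replicates were combined are not given in the sources used here. The authors deposited RPM values, 1 column per group. Samples were grouped by title. Of the columns, 6 were used, and 4 that matched no sample of the series were not.

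Repeated lines (220 of 5787) were averaged per interval. The DMC1 value of an interval is the mean over the DMC1 sites that share at least 1 bp with it (1 site for 419 members, 2 for 1). DMC1 columns were scaled to the B6 median over 8744 autosomal sites and taken as log2(RPM + 1), which understates changes at low sites. A change was called at 1.5-fold. Medians have order-statistic intervals and shares Wilson intervals, both at 95%. These cover neither animals nor library preparation.

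Every DMC1 value of B6 was a whole multiple of 0.129 RPM, and every one of Ewsr1-CKO of 0.246 RPM (largest deviation 0.0035 steps). For Prdm9 het no such step was found (largest deviation 0.50 steps), so its column may not be on the same footing. That 1 step is 1 read is an assumption, used only for a sampling error. The depth of the other columns is unknown, and no count model was fitted.

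The members and the lists were chosen with earlier results of these data known. Named sites were the 5 lowest ratios, the 3 on each side of the limit, the 5 highest B6 DMC1, the 3 highest H3K4me3, and for each genotype ratio the 3 highest and 3 lowest among members of at least median mean DMC1. Site coordinates are the authors'. Gene spans and starts came from RefSeq GRCm38.p6, with starts of the 5 members on chromosome 18 not used here. The planned sequences at DMC1 midpoints were not used here for want of a genome, and upstream windows of gene starts were printed instead. The functions were tested on simulated data. The tools were scipy 1.17.1, numpy 2.4.6 and pandas 2.3.3 in Python 3.11.15, with matplotlib 3.10.9 for plots.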

Additional observations from a re-analysis of the deposited data

How the results depend on the processing

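Differences between poor and middle medians were recomputed under 13 alternatives chosen at the outset and 3 added after the data were seen (deciding by gene span, by mean DMC1 and by distance to another poor interval), 93 values in all. Of these, 72 moved by less than the half-width of the interval of the difference and 21 moved by more. That half-width is the root of the summed squares of the half-widths of the poor and middle medians' intervals. The direction held for DMC1 levels, Prdm9 het over B6 and Ewsr1-CKO over Prdm9 het. The Ewsr1-CKO over B6 difference (0.009) took either sign. With the lowest 5% as members the B6, Ewsr1-CKO and Prdm9 het levels differed by −1.07, −0.93 and −0.86, Ewsr1-CKO over B6 by 0.11 and Ewsr1-CKO over Prdm9 het by −0.072. With the lowest 20% against the middle 60% the Prdm9 het level differed by −0.40. A pseudocount of 1 in the choosing ratio gave levels of −0.53, −0.45 and −0.30 and 0.24 for Prdm9 het over B6. Without the lower quartile of mean DMC1 the levels were −0.34, −0.42 and −0.33, and Ewsr1-CKO over Prdm9 het was −0.26. Within bins of H3K4me3 the Prdm9 het level was −0.75, while Ewsr1-CKO over Prdm9 het (−0.092) was among the 72 that moved less. Within bins of width the Prdm9 het level was −0.40. Outside protein-coding spans Ewsr1-CKO over B6 was −0.10 and Prdm9 het over B6 0.081, and within bins of mean DMC1 Ewsr1-CKO over B6 was −0.047. Without members within 500 kb of another poor interval the B6 and Ewsr1-CKO levels were −0.53 and −0.41. The cause of these shifts was not tested. No paired analysis was possible because each group has 1 column, and no replicate could be left out for the same reason. The read number of the Prdm9 het column is unknown, so its sampling error was not estimated.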
